A study of Mus musculus with 14 samples.

Results

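The stem cell heptad is a set of transcription factor genes, Runx1, Gata2, Tal1, Lyl1, Lmo2, Erg and Fli1. All 7 genes were taken by symbol from the RefSeq gene table of mouse build GRCm38, in which 45216 genes have a known start, 21440 of them protein coding. H3K4me3, trimethylation of lysine on the tail of histone H3, was profiled by CUT&Tag in LSK cells, the bone marrow fraction that lacks lineage markers and carries Sca1 and cKit. Donors of the sorted cells were male mice of the C57BL/6J strain, received when 3 to 4 wk old. Over 16 to 20 wk, fat supplied 10% of kcal in their low-fat control diet (LFD) or 60% in their high-fat diet (HFD). There were 3 HFD-LSK and 4 LFD-LSK peak lists, 1 per library, and 7 IgG libraries that were not used here. Whether each library came from a single mouse or a pool is not given in the sources used here, so p-values measure the spread between these libraries. The study drew its LSK libraries from more than a single cohort of animals and compared diets inside a cohort, but the cohort of each library is not given in the sources used here. The tests below therefore take no account of cohort, and its part in the diet differences was not tested.

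The heptad proteins bind together at enhancers of blood stem and progenitor cells, including their own, and several of them are also needed for the first blood cells of the embryo and for the endothelium from which these arise. Runx1, Gata2, Erg and Fli1 contact DNA through their own domains, Tal1 and Lyl1 bind E-boxes as dimers with E proteins, and Lmo2 binds no DNA and bridges the others. H3K4me3 marks the nucleosomes beside active or poised promoters, so a peak inside a long gene can mark an internal promoter.

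The lists held 9186, 13094 and 11977 peaks in HFD-LSK replicates 1 to 3 and 7447, 10572, 10352 and 6921 peaks in LFD-LSK replicates 1 to 4. Depth was read from the fold and the p-value of each peak, which together gave the number of fragments at its summit. The fewest fragments at any summit were 16, 8 and 4 in the HFD-LSK lists and 21, 10, 8 and 9 in the LFD-LSK lists. The lists thus differed in length and in the fragments a call needed within each diet, and LFD-LSK replicates 1 and 4 were the shortest.

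The sorted fraction was first read through its markers, counting a gene as called when a peak lay within 1 kb of its start. Of the LSK markers, Kit and Cd34 were called in all 7 lists and Flt3 in 6, while Ly6a, which encodes Sca1, and Slamf1 had no peak at the start or in the gene in any list. None of the T cell markers Cd3e, Cd4 and Cd8a and none of the mature myeloid markers Itgam, Ly6g and Csf1r had a peak in any list. The B cell markers Cd79a and Pax5 were called at the start in 0 lists, with a peak elsewhere in Pax5 in 1 list. Erythroid markers were called in part, Klf1 in 5 lists and Epor in 3. Among endothelial markers Emcn was called in 3 lists and Kdr in 1, and Cdh5 and Tek were called in none. Among stromal markers Cxcl12 was called in 2 lists, Col1a2 in 1 and Col1a1 in none. HFD-LSK replicate 2, the longest list, held the calls of Kdr and Col1a2. Whether other cell types were present, or had a part in the heptad values, was not tested.

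Across the heptad, 5 genes had a start peak in each of the 3 HFD-LSK lists, and 4, 5, 5 and 3 genes had one in LFD-LSK replicates 1 to 4. Gata2, Tal1 and Fli1 were called at the start in all 7 lists, Lyl1 in 6, Runx1 in 5, and Lmo2 and Erg in none. The 3 genes called in all 7 lists became 1 with a −log10 q of at least 5, where Gata2 and Fli1 were each called in 3 of 4 LFD-LSK lists. They also became 1 with equal numbers of peaks, where Gata2 was called in 2 and Tal1 in 3 of 4 LFD-LSK lists. With a window of 3 kb on either side of the start they became 4, since Lyl1 was then called in all 7 lists. All 7 genes had a peak somewhere in every HFD-LSK list, and 6, 7, 7 and 5 genes had one in the LFD-LSK lists. The number of genes with a start peak was 5 ± 0 (SD, n = 3) in HFD-LSK and 4.25 ± 0.957 (SD, n = 4) in LFD-LSK, which differ by 0.75 (p = 0.429 in an exact permutation test, two-sided like all such tests here). With equal numbers of peaks per list the difference was 1.08 (exact permutation test, p = 0.114), and the smallest p this design allows is 0.0286. Without LFD-LSK replicate 4 the difference was 0.333. For comparison, 39.0%, 49.2% and 43.0% of protein-coding genes had a start peak in HFD-LSK replicates 1 to 3 and 32.8%, 42.7%, 40.8% and 28.5% in LFD-LSK replicates 1 to 4. A start peak in all 7 lists was found for 20.2% of protein-coding genes and for 3 of the 7 heptad genes. A peak in the gene or the 1 kb before it in all 7 lists was found for 23.7% of protein-coding genes and for 5 of the 7 heptad genes, without regard to gene length.

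Peaks inside the genes and away from the start numbered 9, 13 and 16 in the HFD-LSK lists and 7, 11, 13 and 6 in the LFD-LSK lists. The means were 12.7 ± 3.51 (SD, n = 3) and 9.25 ± 3.30 (SD, n = 4), and the groups overlapped (exact permutation test, p = 0.286). With equal numbers of peaks per list the difference in means turned from 3.42 to -0.75 (exact permutation test, p = 0.571). As a share of the list these peaks made up 0.110% ± 0.0202 (SD, n = 3) in HFD-LSK and 0.103% ± 0.0169 (SD, n = 4) in LFD-LSK, so the share differed by less than the spread between lists (exact permutation test, p = 0.543). Merged over the lists, the peaks formed 18 regions, 6 at gene starts and 12 in gene bodies. Of these, 6 were called in all 7 lists and 2 in a single list, against 30.0% and 19.0% of all 14659 regions. No heptad region was called in all 3 HFD-LSK lists and no LFD-LSK list, or in all 4 LFD-LSK lists and no HFD-LSK list, patterns found for 0.300% and 0.00% of all regions.

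**Figure D1:**
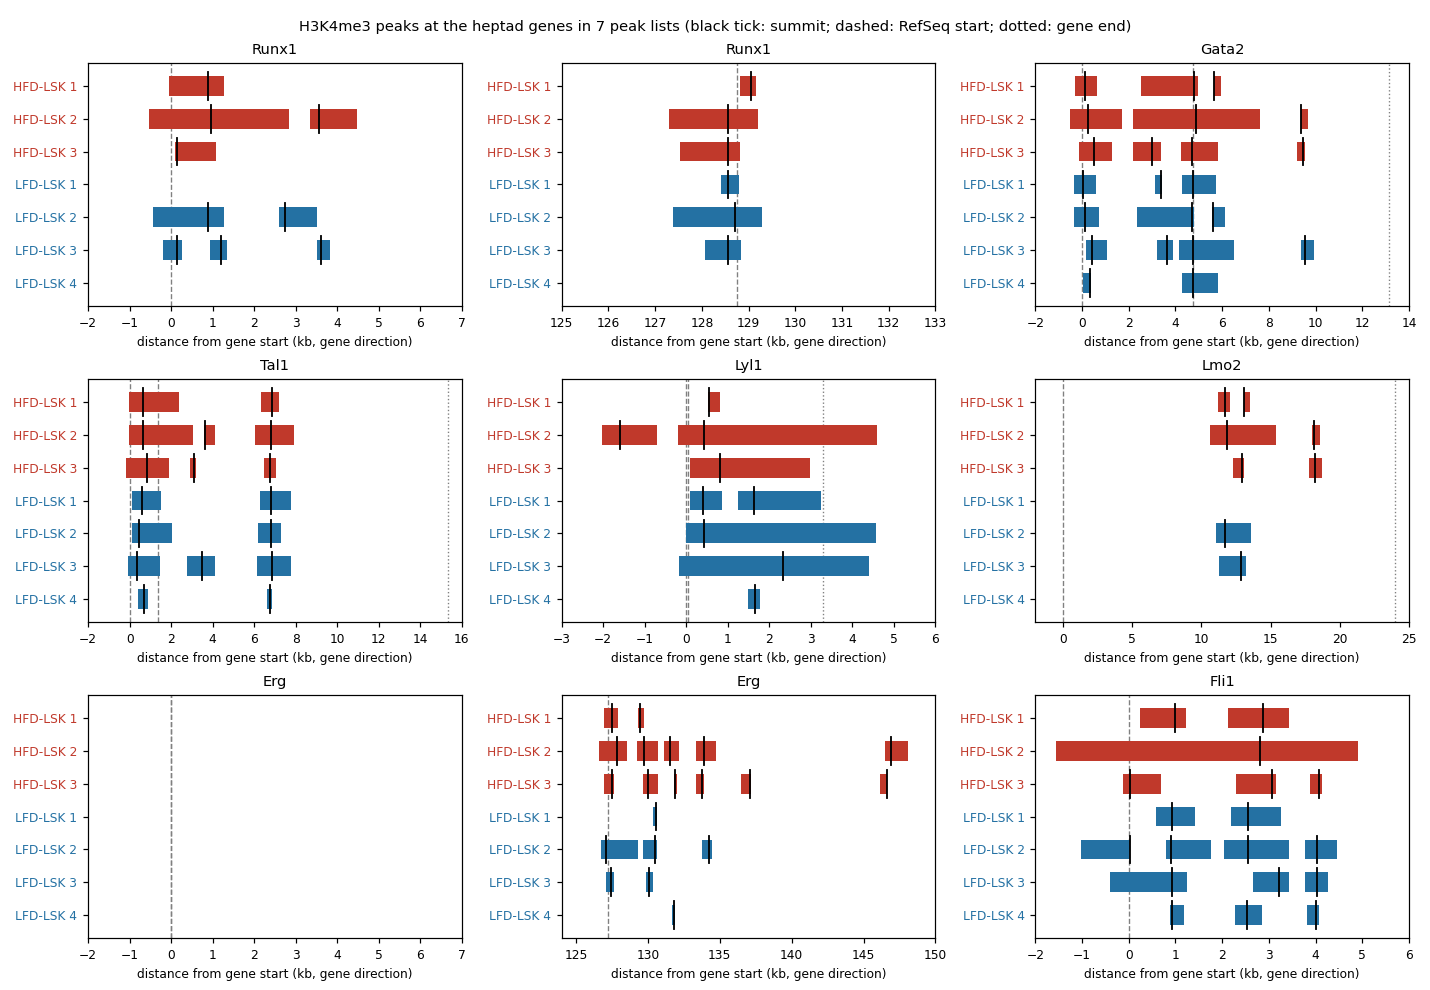
Peaks of each list at the heptad genes, drawn to scale against the distance from the gene start in kb, with HFD-LSK lists in red, LFD-LSK lists in blue, summits as black ticks, RefSeq starts as dashed lines and gene ends as dotted lines, showing only peaks that overlap the gene or the 1 kb before it. Gata2, Tal1 and Fli1 have a start peak in all 7 lists, whereas the peaks of Lmo2 and Erg lie inside the gene in every list that has one.

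Runx1, the RUNX family factor required for the emergence of blood stem cells, spans chr16:92601466-92826074 on the minus strand and has a distal start and a proximal start 128745 bp further along the gene. At the distal start a peak was called in all 3 HFD-LSK lists and in LFD-LSK replicates 2 and 3 (Fisher's exact test, two-sided, p = 0.429). Of all 14659 regions, 3.84% were called in these same 5 lists. The start peaks were 1325, 3375 and 990 bp wide in HFD-LSK replicates 1 to 3, and 1703 bp in LFD-LSK replicate 2. LFD-LSK replicate 3 had a pair of short peaks there that covered 862 bp together. Fold was ranked within each list as a percentile, 100 times the rank over the number of peaks, so that a small value is a strong peak. The strongest start peak was at percentile 59.8, 43.0 and 79.4 in the HFD-LSK lists and 40.8 in LFD-LSK replicate 2, while the pair in LFD-LSK replicate 3 was at 74.0 and 95.8. Summits in the start peaks lay 889, 971 and 142 bp after the gene start in HFD-LSK replicates 1 to 3 and 888 bp after it in LFD-LSK replicate 2, and LFD-LSK replicate 3 had summits at 1198 and 138 bp. Further peaks with summits 3559, 2752 and 3614 bp into the gene were called in HFD-LSK replicate 2 and LFD-LSK replicates 2 and 3, at fold percentiles 77.2, 71.7 and 57.4.

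The proximal Runx1 promoter was called in 6 lists, all but LFD-LSK replicate 4. Its peaks were 350, 1918 and 1281 bp wide in the HFD-LSK lists and 398, 1922 and 776 bp in LFD-LSK replicates 1 to 3, so widths overlapped between diets. The fold percentiles were 94.3, 49.5 and 96.4 in HFD-LSK and 89.2, 64.5 and 7.63 in LFD-LSK. The rank in LFD-LSK replicate 3 stood far above the others, with 31 fragments at the summit (95% Poisson interval 21.1 to 44.0, which covers counting error only). The summits lay close together, at 128570, 128557, 128571, 128718 and 128571 bp in HFD-LSK replicates 2 and 3 and LFD-LSK replicates 1 to 3, and at 129047 bp in HFD-LSK replicate 1. In LFD-LSK replicate 1 the proximal promoter was the only Runx1 peak, and LFD-LSK replicate 4 had none in the gene.

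Gata2, the GATA factor that keeps stem cells in a progenitor state, spans chr6:88193891-88207032 on the plus strand, with a second start 4773 bp into the gene. The start region was called in all 7 lists and its peak covered 956, 2226 and 1420 bp in the HFD-LSK lists and 966, 1077, 900 and 342 bp in the LFD-LSK lists. The mean width was 1534 ± 643 bp (SD, n = 3) against 821 ± 328 bp (SD, n = 4), and the groups overlapped because HFD-LSK replicate 1 was narrower than LFD-LSK replicates 1 and 2 (exact permutation test, p = 0.0857, adjusted p = 0.707 over 4395 regions called in all 7 lists). Without HFD-LSK replicate 2 the width difference fell from 713 to 367 bp. It rose to 1002 bp without HFD-LSK replicate 1, where the groups no longer overlapped. Fold percentiles at the start were 43.0, 31.2 and 39.4 in HFD-LSK and 54.7, 69.8, 69.3 and 81.6 in LFD-LSK. All 3 HFD-LSK lists thus ranked this peak higher than all 4 LFD-LSK lists, with a difference in mean percentile of -31.0. The test gave p = 0.0571 before and 0.939 after adjustment over 4395 regions (exact permutation test), so the difference did not pass the threshold. It was 1 of the 4 heptad start regions called in all 7 lists, and 3.69% of the 4395 regions had a lower percentile, that is a stronger rank, in all HFD-LSK lists, while 1.50% had a higher one. Ranked by the −log10 p in place of the fold, the difference was -34.8 and the groups overlapped (exact permutation test, p = 0.0857). The start was called in 3 of 4 LFD-LSK lists with a −log10 q of at least 5 and in 2 of 4 with equal numbers of peaks. The ranks were therefore not compared under these settings. The fragments at the Gata2 summit, scaled between lists by the regions they share, were 29.7, 26.8 and 29.6 in HFD-LSK and 30.0, 27.4, 23.0 and 25.3 in LFD-LSK, and overlapped (exact permutation test, p = 0.371). The start summits lay 115, 273 and 496 bp after the gene start in HFD-LSK and 59, 122, 422 and 327 bp after it in LFD-LSK.

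The second Gata2 promoter lay in a broader region, chr6:88196060-88201492, that was also called in all 7 lists. Peaks there covered 2724, 5433 and 2767 bp in HFD-LSK and 1771, 3037, 3020 and 1581 bp in LFD-LSK. In every list this internal region was wider than the start region, and it was among the widest 5% of regions of its list, with width percentiles between 0.208 and 4.27. The mean width was 3641 ± 1552 bp (SD, n = 3) in HFD-LSK and 2352 ± 785 bp (SD, n = 4) in LFD-LSK, and the groups overlapped (exact permutation test, p = 0.286). The difference of 1289 bp was 393 bp without HFD-LSK replicate 2. Fold percentiles of 73.8, 9.31 and 12.8 in HFD-LSK and 35.9, 60.4, 23.8 and 73.1 in LFD-LSK overlapped as well. The strongest peaks had their summits 4782, 4870 and 4707 bp into the gene in HFD-LSK and 4751, 4706, 4749 and 4749 bp in LFD-LSK, all within about 0.1 kb of the second start. The start of Gm38708, a long noncoding RNA read from the opposite strand, lies 4393 bp into Gata2, and since the mark has no strand the promoters cannot be told apart. Another short region more than 9 kb into the gene appeared in LFD-LSK replicate 3 and in HFD-LSK replicates 2 and 3.

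Tal1, a basic helix-loop-helix factor required for all blood lineages in the embryo, spans chr4:115056426-115071755 on the plus strand and has a second RefSeq start 1385 bp into the gene. One region held both starts, and its peaks covered 2412, 3606 and 2361 bp in HFD-LSK and 1415, 1937, 2919 and 460 bp in LFD-LSK. LFD-LSK replicate 4 was the narrowest and HFD-LSK replicate 2 the widest, and LFD-LSK replicate 3 overlapped the HFD-LSK range (2793 ± 705 bp, SD, n = 3, against 1683 ± 1026 bp, SD, n = 4, exact permutation test, p = 0.2). The difference of 1110.2 bp was 704 bp without HFD-LSK replicate 2 and 703 bp without LFD-LSK replicate 4. Fold percentiles were 14.7, 22.2 and 26.8 in HFD-LSK and 10.6, 73.2, 9.84 and 45.9 in LFD-LSK, a wider spread in LFD-LSK that enclosed the HFD-LSK values. The difference in means of -13.6 was -0.814 without LFD-LSK replicate 2. Scaled summit fragments were 46.0, 44.5 and 34.8 in HFD-LSK and 48.0, 41.1, 46.0 and 33.2 in LFD-LSK, with a log2 difference of -0.01 (exact permutation test, p = 1). In every list the strongest peak of the region had its summit between the RefSeq starts. These summits lay 665, 661 and 840 bp after the gene start in HFD-LSK and 595, 469, 372 and 682 bp after it in LFD-LSK. Further, weaker peaks of the region had summits 3639 bp into the gene in HFD-LSK replicate 2 and 3104 bp in HFD-LSK replicate 3. LFD-LSK replicate 3 had such a peak with its summit at 3507 bp. These weaker peaks, 518, 264 and 1357 bp wide, are part of the covered widths above. Gm33786, a noncoding gene on the opposite strand, starts 2884 bp into Tal1, within the merged region.

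A separate peak inside Tal1 was called in all 7 lists. Its summits were at 6839, 6805 and 6770 bp in HFD-LSK and 6805, 6807, 6866 and 6775 bp in LFD-LSK, so 7 lists placed it within a stretch of less than 0.1 kb. RefSeq gives no start there, and in GENCODE on build GRCm39, where the gene has the same length of 15330 bp, a transcript starts 6393 bp into Tal1. Its fold percentiles were 12.3, 9.65 and 78.4 in HFD-LSK and 13.9, 29.9, 15.1 and 81.3 in LFD-LSK. One list of each diet, HFD-LSK replicate 3 and LFD-LSK replicate 4, ranked it low, and the others ranked it among the strongest 30% of their peaks. Widths were 848, 1842 and 616 bp in HFD-LSK and 1485, 1091, 1627 and 262 bp in LFD-LSK, with means of 1102 ± 651 bp (SD, n = 3) and 1116 ± 613 bp (SD, n = 4) that differed by less than the spread.

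Lyl1, the close relative of Tal1 that maintains adult stem cells, is the shortest member, at chr8:84701423-84704716 on the plus strand, and has a single RefSeq start. The region that begins at the start reached 4601 bp, beyond the gene end at 3294 bp, where the gene meets the 3′ end of Nfix on the other strand. Peaks covered 284, 4803 and 3429 bp of it in HFD-LSK and 3551, 4568, 4570 and 746 bp in LFD-LSK. In HFD-LSK replicate 3 and LFD-LSK replicates 1 and 4, peaks that overlapped the gene covered 2891, 2747 and 297 bp. The rest in these lists lay in separate peaks past the gene end. A single peak over nearly the whole region was called in HFD-LSK replicate 2 and LFD-LSK replicates 2 and 3, whereas HFD-LSK replicate 1 and LFD-LSK replicate 4 had only short peaks. In 5 lists the region was among the widest 1% of its list, and in HFD-LSK replicate 1 it was at width percentile 99.9. Means were 2839 ± 2317 bp (SD, n = 3) and 3359 ± 1807 bp (SD, n = 4), a difference smaller than the spread (exact permutation test, p = 0.629). The difference of -520.1 bp turned to 757 bp without HFD-LSK replicate 1. Fold percentiles were 96.9, 40.8 and 17.8 in HFD-LSK and 31.7, 42.7, 31.3 and 40.5 in LFD-LSK, and the difference in means was -7.30 without HFD-LSK replicate 1, against 15.2 with it. The summit was not fixed, at 537, 431 and 806 bp in HFD-LSK and 398, 436 and 2328 bp in LFD-LSK replicates 1 to 3. In LFD-LSK replicate 4 the peak began 1491 bp into the gene and its summit was at 1659 bp, outside the 1 kb window. An upstream region with peaks in LFD-LSK replicate 3 and HFD-LSK replicates 2 and 3 lay next to the end of Trmt1.

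Lmo2, the LIM protein that joins the factors into one complex, spans chr2:103957903-103981878 on the plus strand, and no list had a peak within 1 kb of its gene start. Its peaks lay in a region 10651 to 15366 bp into the gene that was called in all 3 HFD-LSK lists and in LFD-LSK replicates 2 and 3 (Fisher's exact test, two-sided, p = 0.429). The same pattern of calls was found for 3.84% of all 14659 regions. Covered widths were 1305, 4716 and 839 bp in HFD-LSK and 2514 and 1954 bp in the LFD-LSK lists with a call. Fold percentiles were 50.2, 27.4 and 54.8 in HFD-LSK and 29.7 and 42.9 in LFD-LSK. The strongest summits in this region were at 11673, 11880 and 12940 bp in HFD-LSK and 11712 and 12855 bp in LFD-LSK. GENCODE on GRCm39, whose gene is 24025 bp long against 23976 bp in GRCm38, has Lmo2 transcripts that start 11542, 12107, 12155, 12237, 12258 and 13193 bp into the gene, over about the same stretch as the peaks. A second region with summits at 18115 and 18209 bp appeared in 2 HFD-LSK lists, replicates 2 and 3, against 0 of 4 LFD-LSK lists (Fisher's exact test, two-sided, p = 0.143). These were the longest lists, and 3.68% of all 14659 regions were called in them alone. Their fold percentiles were 90.02 and 16.9, and the latter was the strongest Lmo2 peak of HFD-LSK replicate 3. Gm38515, a noncoding gene on the opposite strand, covers both regions, and LFD-LSK replicates 1 and 4 had no Lmo2 peak.

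Erg, an ETS factor needed for stem cell self-renewal, spans chr16:95359169-95586600 on the minus strand, and its gene start and the RefSeq start 56235 bp into the gene were called in no list. The third start, 127252 bp into the gene, had a peak within 1 kb in all 3 HFD-LSK lists and in LFD-LSK replicates 2 and 3. The region around that start, 126583 to 130736 bp into the gene, was covered over 1410, 3468 and 1743 bp in HFD-LSK and 300, 3564 and 1102 bp in LFD-LSK replicates 1 to 3. Summits next to the start were at 127478, 127825 and 127479 bp in HFD-LSK and 127052 and 127455 bp in LFD-LSK replicates 2 and 3. LFD-LSK replicate 1 had a single peak of 300 bp at 130538 bp, and LFD-LSK replicate 4 a single peak of 218 bp at 131790 bp. The best fold percentiles in the region were 74.7, 46.7 and 45.1 in HFD-LSK and 91.2, 27.1 and 68.2 in LFD-LSK replicates 1 to 3. Further along the gene, 4 more regions extended to 148118 bp, of which the last was, like the second Lmo2 region, called in HFD-LSK replicates 2 and 3 alone, as were 3.68% of all regions (Fisher's exact test, two-sided, p = 0.143). Peaks covered 1410, 7511 and 3717 bp of Erg in HFD-LSK and 300, 4242, 1102 and 218 bp in LFD-LSK, with means of 4213 ± 3081 bp (SD, n = 3) and 1466 ± 1893 bp (SD, n = 4) whose ranges overlapped (exact permutation test, p = 0.229). The difference of 2747 bp was 1098 bp without HFD-LSK replicate 2, 4148 bp without HFD-LSK replicate 1 and 849.7 bp with equal numbers of peaks.

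Fli1, the ETS factor most closely related to Erg, spans chr9:32422204-32543432 on the minus strand and was called at the start in all 7 lists. Its start region covered 2275, 6465 and 1928 bp in HFD-LSK and 1905, 4104, 2924 and 1124 bp in LFD-LSK. In HFD-LSK replicate 2 a single peak of 6465 bp, the widest heptad peak of the 7 lists, joined what the other lists called as 2 to 4 separate peaks. The means were 3556 ± 2525 bp (SD, n = 3) and 2514 ± 1291 bp (SD, n = 4), and the groups overlapped (exact permutation test, p = 0.486). The difference of 1042 bp turned to -413 bp without HFD-LSK replicate 2. The region was among the widest 10% of its list in every library, with width percentiles from 0.100 to 9.73. Fold percentiles were 31.2, 8.71 and 49.1 in HFD-LSK and 40.1, 20.1, 47.2 and 20.7 in LFD-LSK. Summits of the strongest peaks were not at the gene start in most lists, lying 2868 and 2816 bp into the gene in HFD-LSK replicates 1 and 2 and 2562, 2562 and 2531 bp into it in LFD-LSK replicates 1, 2 and 4. In HFD-LSK replicate 3 the strongest summit lay 28 bp and in LFD-LSK replicate 3 it lay 936 bp after the gene start. LFD-LSK replicate 3 alone had a further peak of 282 bp, with its summit 34572 bp into the gene. Near 1 kb, HFD-LSK replicate 1 had a summit at 995 bp and LFD-LSK replicates 1 to 4 had summits at 919, 908, 936 and 919 bp. The single peak of HFD-LSK replicate 2 spanned that stretch, and the start peak of HFD-LSK replicate 3 ended 693 bp into the gene. In GENCODE on GRCm39, Fli1 transcripts also start 1170, 1266 and 1305 bp into the gene. That gene is 120658 bp long against 121229 bp in GRCm38, so the positions need not match. Scaled summit fragments were 34.7, 40.5 and 52.2 in HFD-LSK and 34.0, 35.1, 30.6 and 41.1 in LFD-LSK (exact permutation test, p = 0.229), taken at the peak of the region with the most fragments. In HFD-LSK replicate 3 that peak, with 30 fragments, lay 3063 bp into the gene at fold percentile 75.4, whereas the peak with the highest fold had 15 fragments, or 26.2 after scaling. With the peak of the highest fold in each list the log2 difference turned from 0.26 to -0.0732 (exact permutation test, p = 0.686).

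**Figure D2:**
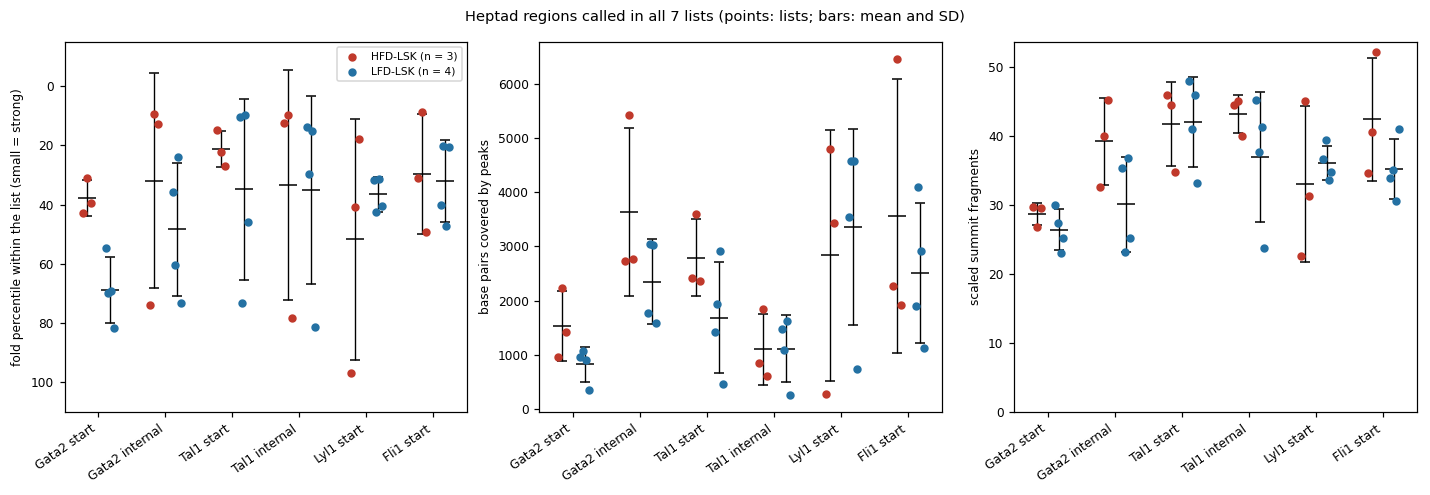
Fold percentile within the list, base pairs covered by peaks and scaled summit fragments for the 6 heptad regions called in all 7 lists, with 1 point per list, HFD-LSK in red (n = 3), LFD-LSK in blue (n = 4), and the mean and SD as black bars. The fold percentile axis is inverted so that strong peaks are at the top, and Gata2 start is the 1 region whose diets do not overlap, at 31.2 to 43.0 against 54.7 to 81.6. Its adjusted p was 0.939 in the exact permutation test. Of the 4395 regions called in all 7 lists, 3.69% ranked stronger in all HFD-LSK lists and 1.50% weaker.

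Over the 4 start regions called in all 7 lists, no width and no summit fragment count separated the diets. Among the 4395 regions called in all 7 lists, 6.73% were wider in all HFD-LSK lists than in all LFD-LSK lists and 0.00% were narrower, while 2.62% had more and 2.71% fewer scaled summit fragments. The median width over these regions was 1085, 1658 and 1085 bp in HFD-LSK and 871, 1275, 1081 and 644 bp in LFD-LSK. No region of the 4395 passed an adjusted p of 0.05 in the exact permutation test for fold percentile, width or summit fragments, where 112, 157 and 102 regions had an unadjusted p under 0.05. In limma 0 regions passed, with 189, 252 and 182 at an unadjusted p under 0.05. For an adjusted p under 0.05, 2512 of the 4395 regions would have had to reach the smallest p of the exact test, and counts of 0 do not show that the diets were alike.

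The median fold percentile over the heptad peaks was 66.8, 49.5 and 53.5 in HFD-LSK and 42.3, 60.4, 57.4 and 79.0 in LFD-LSK, where the middle of a list is 50. The strongest 10% of the list held 0, 3 and 0 heptad peaks in HFD-LSK and 0, 0, 2 and 0 in LFD-LSK. The widest 10% held 2, 6 and 3 of 14, 19 and 21 heptad peaks in HFD-LSK and 4, 6, 5 and 1 of 11, 17, 19 and 9 in LFD-LSK. The start regions of Lyl1, Tal1 and Fli1 were wide, with median width percentiles over the 7 lists of 0.285, 2.31 and 2.99, and that of Gata2 was at 43.6. The Lyl1 region includes peaks past the gene end.

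For each start region called in all 7 lists, the other gene start with the closest fold and width percentiles over the 7 lists (14 values) was found among 3971 regions. For Fli1 this was the region of Meis1, a stem cell homeobox gene, with a mean absolute difference of 6.004 percentile points. For Tal1 it was the region of Map3k11 and Pcnx3, at 5.34. Lyl1 was closest to Bahd1 and Gm32957, at 10.8, and Gata2 was closest to Ippk, at 12.1.

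Genes that work with the heptad or belong to its families were counted in the same way, against 20.2% of protein-coding genes with a start peak in all 7 lists. Of 8 partner genes, 5 had one, namely the core binding factor partner Cbfb, the E proteins Tcf3 and Tcf12, and the Ldb1 binding proteins Ssbp2 and Ssbp3. Ldb1 itself, the dimerization partner of Lmo2, had no start peak in any list but a peak inside the gene in all 7, and all 8 partner genes had a peak in the gene or the 1 kb before it in all 7 lists, against 23.7% of protein-coding genes. Of 14 family members outside the heptad, 2 had a start peak in all 7 lists, the LIM gene Lmo4 and the ETS gene Ets2. Gata3, Runx3 and Ets1 had no start peak but a peak in the gene in all 7 lists, and Fev, Gata1, Gata4, Gata5, Lmo3 and Tal2 had no peak in any list. Of 10 other regulators of the stem cell network, Etv6, Gfi1, Hhex, Ikzf1, Mecom, Meis1 and Myb had a start peak in all 7 lists, and Gfi1b had none. Per list, the counts of start peaks for the network genes were 8, 9 and 8 in HFD-LSK and 7, 8, 8 and 7 in LFD-LSK. They were 7, 7 and 7 against 6, 7, 7 and 5 for the partner genes. For the family members they were 2, 5 and 3 against 2, 3, 3 and 2. Of all protein-coding genes, 39.0%, 49.2% and 43.0% had a start peak in the HFD-LSK lists and 32.8%, 42.7%, 40.8% and 28.5% in the LFD-LSK lists.

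RefSeq promoter windows, 250 bases before to 50 bases after a start, were found for 5 members (Runx1, Gata2, Tal1, Lyl1 and Erg), with 10 starts in all. Lmo2 and Fli1 were not among them. Both Runx1 starts were called, the distal in 5 lists and the proximal in 6. The proximal start had 69.0% G and C with 35 CpG dinucleotides, and the distal start had 45.0% with 2. At Erg the uncalled gene start had 50.3% G and C with 16 CpG and the uncalled start 56235 bp into the gene 37.3% with 2. The called start 127252 bp into the gene had 46.0% with 4, against medians of 52.7% and 7 CpG over 32851 windows. Motifs were searched for on both strands of all windows. The RUNX motif TGTGGT occurred in 16.8% of all windows and, in the heptad, at the distal Runx1 start. The GATA motif AGATAA occurred in 11.2% of all windows and at the first Tal1 start and the Erg start 127252 bp into the gene. The E-box CAGCTG occurred in 16.3% of all windows and at the second Gata2 start. Another E-box, CAGATG, occurred in 17.2% of all windows and at the first Tal1 start. The ETS motif CCGGAAGT occurred in 3.89% of all windows and in none of the heptad windows. The bases before 5 of these starts are shown because they hold the alternative promoters of Runx1 and Erg and the first start of Tal1. They come from RefSeq on GRCm38.p6, read 5′ to 3′ along the gene, with capitals for any motif in the bases before the start.
Runx1 distal start, chr16:92826075-92826324, minus strand: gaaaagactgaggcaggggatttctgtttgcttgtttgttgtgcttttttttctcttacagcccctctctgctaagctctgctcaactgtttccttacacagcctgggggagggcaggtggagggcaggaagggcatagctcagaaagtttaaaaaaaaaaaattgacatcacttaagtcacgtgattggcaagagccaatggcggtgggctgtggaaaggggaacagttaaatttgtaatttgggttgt
Runx1 proximal start, chr16:92697330-92697579, minus strand: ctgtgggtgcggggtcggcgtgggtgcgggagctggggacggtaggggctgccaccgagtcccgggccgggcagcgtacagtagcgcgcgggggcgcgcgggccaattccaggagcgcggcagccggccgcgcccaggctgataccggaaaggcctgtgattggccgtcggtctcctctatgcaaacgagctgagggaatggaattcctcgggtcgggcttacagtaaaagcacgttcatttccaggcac
Erg gene start, chr16:95586594-95586843, minus strand: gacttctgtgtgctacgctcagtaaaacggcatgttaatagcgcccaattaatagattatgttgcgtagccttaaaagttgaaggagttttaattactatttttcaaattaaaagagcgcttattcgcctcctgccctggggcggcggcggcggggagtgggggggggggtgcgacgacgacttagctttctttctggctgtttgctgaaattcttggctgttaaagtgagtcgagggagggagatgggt
Erg internal start, chr16:95459349-95459598, minus strand: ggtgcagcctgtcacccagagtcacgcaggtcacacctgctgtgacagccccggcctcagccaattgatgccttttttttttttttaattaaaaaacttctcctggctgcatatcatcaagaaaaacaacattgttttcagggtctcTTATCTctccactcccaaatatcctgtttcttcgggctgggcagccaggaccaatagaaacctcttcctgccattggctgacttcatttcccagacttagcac
Tal1 first start, chr4:115056176-115056425, plus strand: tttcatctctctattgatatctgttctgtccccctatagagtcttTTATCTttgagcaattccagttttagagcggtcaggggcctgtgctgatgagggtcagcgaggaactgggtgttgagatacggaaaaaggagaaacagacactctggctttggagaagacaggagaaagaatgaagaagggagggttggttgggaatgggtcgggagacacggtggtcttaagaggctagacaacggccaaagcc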

How the data were processed

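The material was 1 H3K4me3 CUT&Tag peak list per LSK library, 3 of HFD and 4 of LFD mice. Titles call the assay CUT&RUN and the protocol CUT&Tag. The submitters' processing notes name Trim Galore, Bowtie2, Picard, MACS2, bedtools, HOMER and featureCounts on GRCm38, while the study's methods name GRCm39, SEACR and DESeq2 with batch and pairing as covariates. Neither is given per library in the sources used here, so no such term was fitted. Coordinates were read as GRCm38. The deposited columns give per peak a fold (summit height over local background), −log10 values of p and q, and a score. Fold and p depend on each library's depth and background, so fold was ranked within a list.

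Peaks that overlapped or touched were merged over the 7 lists into 14659 regions, of which 4395 were called in all 7. A start call needs a peak within 1 kb of the RefSeq gene start. Strand came from the RefSeq promoter table, or for Lmo2 and Fli1 from GENCODE on GRCm39 by symbol. Exon and intron limits on GRCm38 were not used here. Summit fragments were recovered from fold and p with a pseudocount of 1 and the Poisson tail, to within 0.02 fragments of a whole number. This gave a solution for 100% of peaks in each list, and for 5.03% to 17.7% when p-values were shuffled among peaks. The steps were tested on simulated data. Diets were compared by exact permutation over the 35 assignments of 7 lists, two-sided, with Benjamini-Hochberg adjustment over the 4395 regions, and calls by Fisher's exact test. limma 3.58.1 (R 4.3.3) was the alternative model. Python 3.11.15, numpy 2.4.6, pandas 2.3.3 and scipy 1.17.1 were used.

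Named genes were the 7 members, the gene start closest to each start region called in all 7 lists, and the genes of the partner, family and network lists called in all or no lists. Some marker genes are not reported here. Members and lists were chosen with earlier results of these data known. Alternatives were a −log10 q of at least 5, equal numbers of peaks, other windows, ranks and merging, fragments of the peak with the highest fold (chosen after seeing the data), limma, the replicate block and leaving out each list.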

Additional observations from a re-analysis of the deposited data

How the results depend on the processing

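The difference in heptad genes with a start peak (0.75) and in gene body peaks (3.42) missed the threshold, also with a −log10 q of at least 5, a wider start window and equal numbers of peaks, which does not show that the diets were alike. Without 1 list at a time, where the smallest exact p is 0.0667 without an HFD-LSK list and 0.1 without an LFD-LSK list and no result can pass, the differences ran from 0.333 to 1 gene and from 1.75 to 5.25 peaks. With an equal number of peaks per list, 6921, the start peak difference was 1.08 (exact permutation p = 0.114) and the body peak difference was -0.75, and the cause was not tested. Replicate numbers were shared between diets, but deviations of same-numbered lists did not all correlate above 0.1 (0.186, 0.0167 and 0.0522 for fold percentile), and the cohorts behind the numbers are not given in the sources used here, so the numbers were not taken to pair the lists. With the replicate block, over 3 pairs and with a smallest p of 0.25, the differences were 0.333 genes and 2.33 peaks. For start regions called in all 7 lists, all 3 pairs moved in 1 direction for 1 of 4 by fold rank. By width 0 and by summit fragments 1 did so. The share of all 4395 regions with this pattern was not counted, so no diet difference is read from it. The number of body peaks and the covered length of Erg were also higher in HFD-LSK in all 3 pairs. So was the number of peaks in the whole list, at 9186, 13094 and 11977 against 7447, 10572 and 10352. As a share of the list, body peaks did not keep this direction. They made up 0.0980%, 0.0993% and 0.134% in HFD-LSK replicates 1 to 3 and 0.0940%, 0.104% and 0.126% in LFD-LSK replicates 1 to 3.

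Of the 4395 regions called in all 7 lists, 3.69% separated the diets with HFD-LSK stronger by fold rank and 1.50% with it weaker. Among heptad start regions, the count that separated the diets by fold rank was 1 of 4. The count was 0 with a −log10 q of at least 5 and with equal numbers of peaks, where Gata2 start was no longer called in all 7 lists, 0 when ranked by −log10 p, where the Gata2 difference was -34.8 (exact permutation p = 0.0857), and 0 in limma at an adjusted p under 0.05. It was 1 with the percentile taken among regions called in all 7 lists, where the Gata2 difference was -25.4 (exact permutation p = 0.0571). Without 1 list it stayed at 1, by width it ran from 0 to 1, and by summit fragments from 0 to 1.

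Several differences changed sign, none of them past the threshold. For the internal Tal1 region the fold percentile difference was 13.8 with the replicate block and -24.1 to 13.8 without 1 list, and its width difference was 0.11 (log2) in limma and -384 to 229 bp without 1 list. At Lyl1 start the fold percentile ran from -7.30 to 32.3, the width from -1502 to 757 bp and log2 fragments from -0.437 to 0.0596 without 1 list, and the width difference was 143 bp when peaks within 500 bp were merged. At Fli1 start the fold percentile ran from -12.1 to 8.12 and the width from -413 to 1856 bp without 1 list, and with equal numbers of peaks the differences were 6.33 percentile points and -0.10 in log2 fragments. With the fragments of the peak with the highest fold (chosen after the data were seen) the log2 difference at Fli1 start was -0.0732 and 0 start regions separated the diets. Of 19 differences, 6 regions by 3 measures and the covered length of Erg, whose alternatives were also chosen then, 17 moved by over 1.5 times with their sign kept under at least 1 alternative. When peaks within 500 bp were merged, which joins both Gata2 regions, their width difference was 2002 bp. At Tal1 start log2 fragments ran from -0.12 to 0.12 without 1 list. The causes were not tested. Summit counts of 7 to 79 fragments and lists of 6921 to 13094 peaks limit the precision.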
